A study of Homo sapiens with 4 samples.

Results

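The distal long arm of human chromosome 19 holds 2 large clusters of zinc-finger genes, and the m6A peaks over them were taken as all listed peaks with a summit at 52.3 to 54.1 Mb (the centromeric segment) or 56.5 to 59.1 Mb (the telomeric segment) of hg19. This gave 265 control peaks and 261 CDCA peaks, out of 1851 and 1620 on chromosome 19 and 63093 and 52188 in the whole lists. m6A, or N6-methyladenosine, was mapped in GES-1, a human gastric epithelial cell line, by immunoprecipitating RNA with an m6A antibody and sequencing it (MeRIP). The series held 4 samples: an input and a MeRIP library of untreated cells (control), and the same pair from cells kept for 48 h with 100 µM CDCA (chenodeoxycholic acid, a primary bile acid). The comparison asked which m6A sites differed under CDCA. The MeRIP peak lists were used, and the inputs were not analysed here as samples.

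Most genes of these clusters encode KRAB zinc-finger proteins, DNA-binding repressors that recruit the corepressor TRIM28 and are known for silencing transposable elements. Their tandem zinc fingers are usually encoded by 1 long last exon, and m6A is placed mainly in long internal exons, in last exons and near stop codons. In RefSeq's GRCh38.p14 gene table, read for names and order only, 38 of 47 protein-coding genes from ZNF577 to ZNF331 and 66 of 87 from ZNF787 to MZF1 have a zinc-finger gene symbol of their own, which are the runs of genes known from these 2 clusters. The second run also holds the gene for TRIM28 itself and PEG3, an imprinted zinc-finger gene. The peak lists give positions without gene names and that table has another build, so no peak was assigned to a gene and the ends of the runs were not matched to the segment ends.

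m6A peaks lay closer together in the zinc-finger segments than over the rest of chromosome 19. The segments held 60.2 control and 59.3 CDCA peaks per Mb, against 29.0 and 24.9 per Mb over the other 54.6 Mb between the first and last listed peak of the chromosome. They made up 7.45% of that span and held 14.3% of its control peaks and 16.1% of its CDCA peaks. Peaks covered 22.5 kb per Mb in the control list and 23.5 kb per Mb in the CDCA list, against 10.02 and 8.93 kb per Mb elsewhere on the chromosome. The rest of the chromosome was taken whole, with any other zinc-finger genes and any stretches where reads cannot be placed. The 2.4 Mb between the segments were sparser, with 58 control and 38 CDCA peaks. Both segments were dense: the centromeric one held 107 control and 89 CDCA peaks, and the telomeric one 158 and 172.

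The spacing of neighbouring peaks showed the same. In control the median distance from a peak to the next peak of its list was 5192 bp, and in CDCA 5072 bp, against 9899 and 11888 bp for other chromosome 19 peaks. The next peak lay within 1000 bp in 26.2% of 263 control cases (95% interval 21.0 to 32.0) and 27.8% of 259 CDCA cases (22.4 to 33.7). Elsewhere on the chromosome this was so in 13.3% (11.6 to 15.0) and 14.5% (12.7 to 16.5). Intervals are at the 95% level, by the exact Clopper-Pearson method or, for medians, by the ranks of the values, and reflect counting error alone. Each condition had 1 library and no replicate, so no difference between conditions was tested, and differences between the segments and the rest of the chromosome are descriptions of these 2 libraries.

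**Figure D1:**
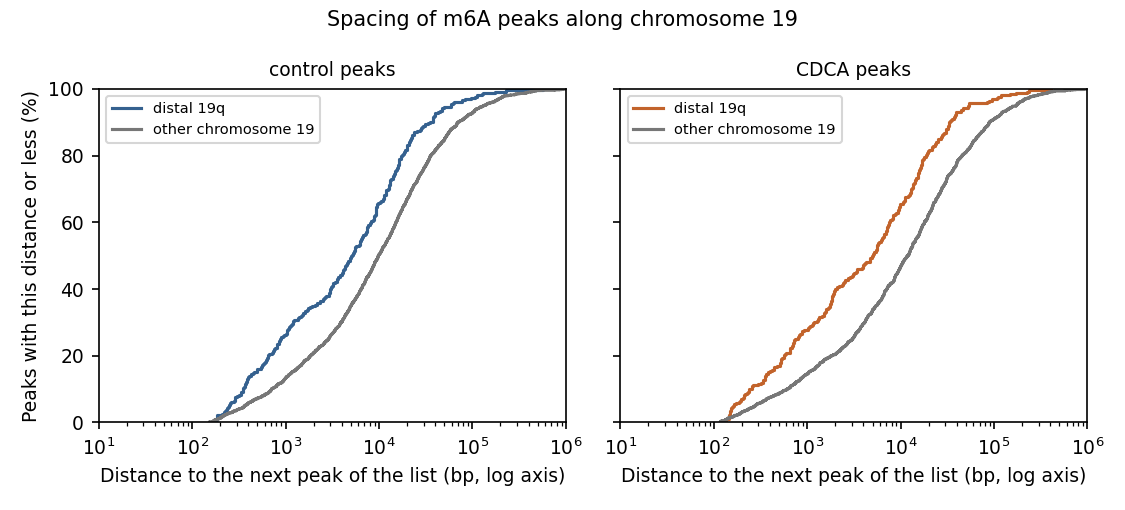
Share of peaks (vertical axis, %) whose next peak of the same list lies within the distance on the horizontal axis (bp, log axis), for distal 19q peaks in colour and all other chromosome 19 peaks in grey. In both lists the distal 19q curve runs above the grey one, with medians of 5192 against 9899 bp in control and 5072 against 11888 bp in CDCA.

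The numbers of listed peaks in control and CDCA-treated cells were close in these segments. CDCA peaks came to 98.5% of control peaks in number (82.7 to 117), against 85.7% (79.6 to 92.2) over the rest of chromosome 19, and these intervals overlap. The segments went different ways: 83.2% (62.1 to 111) in the centromeric and 109% (87.2 to 136) in the telomeric segment, both intervals including equal numbers. The numbers differed by strength. Strength is given as −log10 of the authors' q-value. Below 10 the CDCA list held 47 peaks against 23, from 10 to 20 it held 85 against 74, and from 20 to 50 it held 63 against 97. From 50 to 100 the numbers were 40 in CDCA and 32 in control, and at 100 or more 26 and 39. Elsewhere on chromosome 19 the CDCA list likewise held more peaks below 10, 288 against 170. From 10 to 20 it held 454 there against 473, and from 20 to 50 it held 319 against 578. At 50 to 100 it held 133 against 159, and at 100 or more 165 against 206. Fewer CDCA than control peaks at 20 to 50 and at 100 or more were thus seen in both parts of the chromosome. Counting from a −log10 q of 20 upward, CDCA reached 76.8% (60.6 to 97.2) of the control number, against 65.4% on the rest of the chromosome.

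Distal 19q peaks had a slightly higher median fold enrichment than other chromosome 19 peaks of the same list. Fold enrichment is the authors' ratio of summit height to local background. Its median was 10.8 in control (quartiles 8.23 and 17.3) against 10.1 elsewhere on the chromosome, and 10.1 in CDCA (7.75 and 16.7) against 8.89. The interval of the median was 10.1 to 12.1 in control, which reaches the value elsewhere, and 9.29 to 11.0 in CDCA, which does not. A fold of at least 20 was reached by 53 of 265 peaks in control (15.4 to 25.3%) and 47 of 261 in CDCA (13.5 to 23.2%), against 13.5% (11.8 to 15.3) and 12.2% (10.5 to 14.1) elsewhere. The control intervals just miss each other and the CDCA intervals overlap. Median −log10 q was 26.7 in control (interval 23.0 to 31.9) and 19.9 in CDCA (17.1 to 24.3), against 24.5 and 17.9, which lie within these intervals.

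Summit heights of the zinc-finger segments were lower than elsewhere on the chromosome at the 90th percentile only, not at the median or upper quartile. The 90th percentile was 128 in control and 89.6 in CDCA, against 156 and 140 elsewhere. The median and upper quartile were 32.8 and 59.5 in control, against 31.05 and 54.3 elsewhere. In CDCA they were 24.95 and 55.65, against 23.7 and 51.8. No interval was computed for heights. The strongest member had a −log10 q of 392 in control and 474 in CDCA. Local background, recovered from height and fold, was at least 10 under 13 of 265 peaks in control (4.91%, 2.64 to 8.24) and 9 of 261 in CDCA (3.45%, 1.59 to 6.44). On the rest of the chromosome it was that high under 9.33% (7.94 to 10.9) and 8.98% (7.51 to 10.6), with intervals that overlap in control and are apart in CDCA. RNA level was not measured here, so its part in height and background was not tested. In fragments, read from the step between successive heights, the median summit of the segments rested on 38 fragments in control and 39 in CDCA, and the weakest on 12 and 15.

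Strong peaks, those at a −log10 q of 100 or more, were 39 of the 265 control peaks (14.7%, 10.7 to 19.6) and 26 of the 261 in CDCA (9.96%, 6.61 to 14.3). Over the whole lists 7.77% and 7.90% of peaks were strong, and over the rest of chromosome 19 it was 12.99% (11.4 to 14.7) and 12.1% (10.5 to 14.0), and the intervals of the segments and of the rest of the chromosome overlap. Peaks were slightly longer by the median in the segments. Control peaks had a median of 260 bp (244 to 271) and CDCA peaks 256 bp (241 to 281), against 239 and 242 bp elsewhere on chromosome 19. The value elsewhere lies below the control interval and within the CDCA interval. Peaks over 1000 bp numbered 12 (4.53%, 2.36 to 7.78) and 10 (3.83%, 1.85 to 6.93), against 3.72% and 3.68% on the rest of the chromosome and 1.79% and 1.84% over the whole lists.

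Sites in the zinc-finger segments were found in both lists more often than sites elsewhere on chromosome 19. Shared peaks were those with an overlap of 1 bp or more with any peak of the other condition. Sharing in the segments came to 117 of 265 control peaks (44.2%, 38.1 to 50.4) and 113 of 261 in CDCA (43.3%, 37.2 to 49.5). It was 18.2% and 22.2% over the whole lists, and 27.6% (25.4 to 29.8) and 33.0% (30.5 to 35.6) over the other chromosome 19 peaks. Merging overlapping peaks of both lists gave 404 sites, of which 108 (26.7%, 22.5 to 31.3) held a peak of each list, against 421 of 2480 sites (17.0%, 15.5 to 18.5) elsewhere. The remaining sites of both segments together were divided evenly, with 148 in control only and 148 in CDCA only. The centromeric segment had 57 in control only and 41 in CDCA only, and the telomeric segment 91 and 107. Elsewhere on the chromosome the numbers were 1149 and 910. By segment, the centromeric one had 46.7% (37.0 to 56.6) of its control peaks shared and 53.9% (43.0 to 64.6) in the CDCA list, and the telomeric one 42.4% (34.6 to 50.5) and 37.8% (30.5 to 45.5).

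The gap was clearest among peaks of middle strength. At a −log10 q of 20 to 50, 41 of 97 control peaks of the segments were shared (42.3%, 32.3 to 52.7), against 106 of 578 elsewhere on chromosome 19 (18.3%, 15.3 to 21.7). In the CDCA list it was 34 of 63 (54.0%, 40.9 to 66.6) against 100 of 319 (31.3%, 26.3 to 36.8). The intervals overlapped in every other band of both lists. Of the strong control peaks 37 of 39 had a partner (94.9%, 82.7 to 99.4), as had 24 of 26 strong CDCA peaks (92.3%, 74.9 to 99.1), against 87.6% and 91.2% of strong peaks over the whole lists. Below a −log10 q of 10 sharing was seen in 3 of 23 control cases and 3 of 47 CDCA cases.

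**Figure D2:**
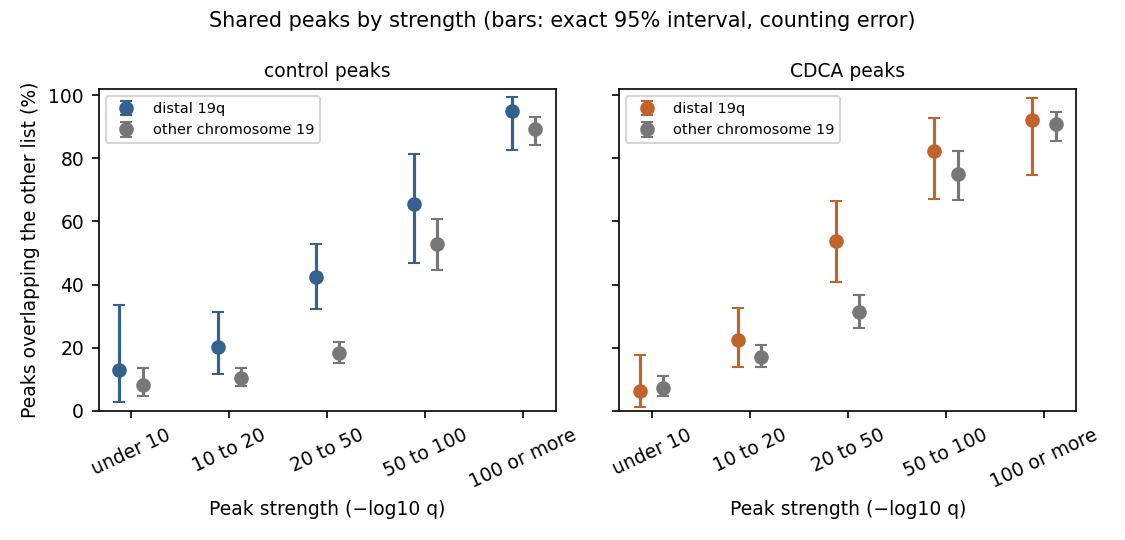
Share of peaks that overlap a peak of the other list (vertical axis, %) by band of −log10 q (horizontal axis), for control peaks on the left and CDCA peaks on the right; points are shares and bars exact 95% intervals that cover counting error. Distal 19q (colour) stands clear of the rest of chromosome 19 (grey) at 20 to 50 in both lists, with 42.3% against 18.3% and 54.0% against 31.3%, and the intervals overlap in the other bands.

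Split by local background, length or the density of peaks, the gap was present in some bands and not in others. Where the background was 2 to 5, sharing was 62.5% among 80 control peaks (51.0 to 73.1) and 61.8% among 68 in CDCA (49.2 to 73.3), against 26.3% (22.1 to 30.9) and 41.1% (35.5 to 46.9) elsewhere. Below a background of 1 the control intervals were also apart, with 26.5% (17.4 to 37.3) against 13.5% (10.6 to 16.8), and in all other background bands of both lists the intervals overlapped. By length the intervals were apart in the control list only. Among control peaks longer than 200 and up to 300 bp, 33.0% (23.5 to 43.6) were shared in the segments and 14.7% (12.1 to 17.6) elsewhere, and from there to 500 bp 68.5% (54.4 to 80.5) against 47.8% (41.5 to 54.2). For CDCA peaks the shares at these lengths were 24.5% (16.4 to 34.2) against 20.04% (16.6 to 23.9), and 65.4% (50.9 to 78.0) against 48.8% (42.6 to 55.1). The order was the reverse among control peaks over 1000 bp, with 91.7% against 98.3%, and the intervals overlapped. Density was counted in 100 kb windows over both lists together. In windows with 1 to 9 peaks sharing was 20.6% in control (8.70 to 37.9) and 29.6% in CDCA (13.8 to 50.2), against 22.7% and 28.4% elsewhere. In windows with 10 to 19 peaks, sharing was 51.1% among 92 control peaks (40.4 to 61.7) and 51.6% among 91 in CDCA (40.9 to 62.3), against 29.6% (26.5 to 32.9) and 34.5% (31.0 to 38.1). In windows with 20 or more, the shares were 45.3% (36.9 to 54.0) and 40.6% (32.4 to 49.1) in the segments, and 40.0% (31.3 to 49.1) and 45.1% (35.8 to 54.8) elsewhere. In those richest windows, which held 139 of the 265 control and 143 of the 261 CDCA peaks, the segments were therefore not separated from the rest of the chromosome.

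The summits of shared sites were somewhat farther apart than elsewhere by the median, while the shares of close pairs had overlapping intervals. In 96 cases 1 control peak met 1 CDCA peak, and their summits were a median of 65.5 bp apart, with 38 pairs (39.6%, 29.7 to 50.1) within 50 bp. For the 384 such pairs on the rest of chromosome 19 the median was 47.5 bp and 51.8% (46.7 to 56.9) were within 50 bp. When sharing was defined by summits within 100 bp, 25.3% of the segments' peaks in control (20.2 to 31.0) and 25.7% in CDCA (20.5 to 31.4) qualified, against 19.4% and 22.6% elsewhere, so most of the gap was lost in both lists. Fold enrichment was higher in control in 49 of the 96 pairs and in CDCA in 47. The medians were 16.0 and 15.1 for fold and 375 and 420 bp for length. Across the 96 pairs, which share each list's depth and scaling, Spearman's rho was 0.34 for fold, 0.45 for length and 0.62 for height; on the rest of chromosome 19 it was 0.46, 0.62 and 0.87.

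**Figure D3:**
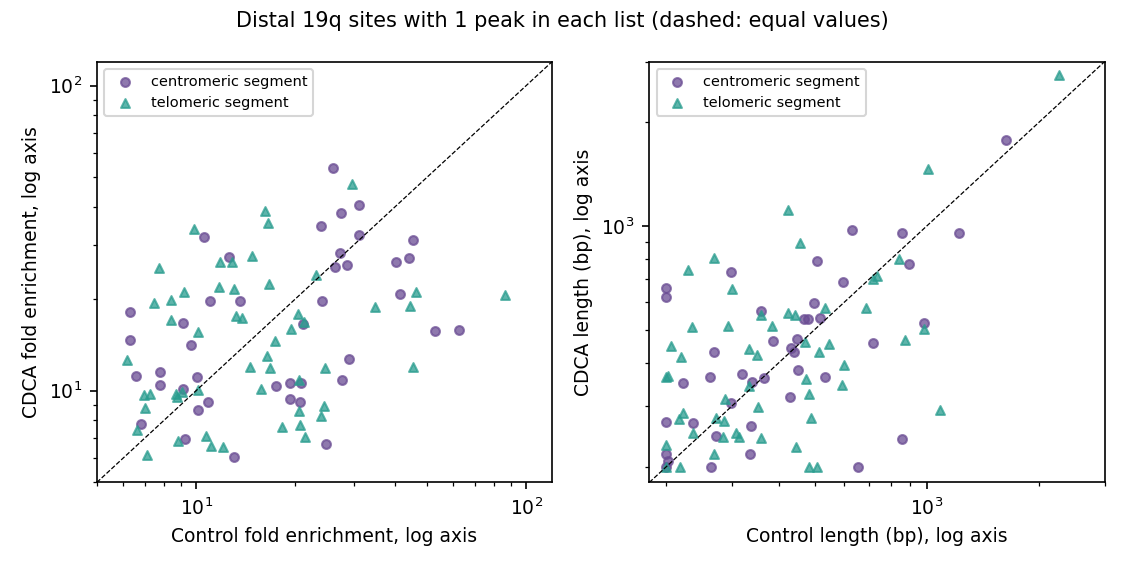
Fold enrichment (left) and peak length in bp (right) of the 96 distal 19q sites with 1 peak in each list, control on the horizontal and CDCA on the vertical axis, both log axes; circles are the centromeric and triangles the telomeric segment, and the dashed line marks equal values. Points scatter to both sides of the line, with the higher fold in control at 49 sites and in CDCA at 47.

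The most significant site was the same in both lists and had little enrichment over a high background. It lay at chr19:58826169-58826501 in control, with a height of 809, a fold of 7.23 and a −log10 q of 392, and at 58826167 to 58826510 in CDCA, with a height of 789, a fold of 9.75 and a −log10 q of 474. The background was 111 in control and 80.0 in CDCA, the highest control background of any member. The summits were 6 bp apart. All other leading sites had lower backgrounds.

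High enrichment marked most other leading control sites. The site at chr19:58639295-58639839 had the highest control fold of the segments, 86.3 with a −log10 q of 382, and its CDCA partner at 58639401 to 58639855 had 20.5 and 98.8. At chr19:52393949-52394395, in the centromeric segment, control had a fold of 62.7 and a −log10 q of 388, and CDCA had 15.8 and 67.8. At chr19:58880072-58880495 the values were 44.6 and 345 in control and 18.97 and 120 in CDCA. These 3 control peaks were thus listed with the larger fold and strength, although each list was scaled on its own and a change of methylation was not measured. Heights at the 3 sites were 223, 262 and 267 in control and 102, 78.0 and 132 in CDCA.

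The opposite order of fold was seen at other leading sites. At chr19:57931018-57931678 control had a fold of 69.4 and a −log10 q of 270, and the CDCA peak at 57931087 to 57931897 had 91.0 and 297, the highest CDCA fold of the segments. That CDCA peak had a background of 0.746, close to the lowest of its list. At chr19:57909898-57910368 the fold was 29.8 in control and 47.4 in CDCA, while −log10 q was 324 and 257. In the centromeric segment, the site at chr19:53207384-53208242 had a fold of 31.2 in control and 40.6 in CDCA, again with the higher −log10 q in control (213 against 162). At chr19:53572843-53573304 the CDCA fold was 53.8 and that of the control partner 25.9. Fold and significance therefore did not always order the 2 lists alike at 1 site. The 10 leading peaks ran from a −log10 q of 213 to 392 in control and from 162 to 474 in CDCA, and 9 of the control peaks and all 10 CDCA peaks were shared.

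The remaining leading peaks lay mostly in the telomeric segment and also differed in rank between the lists. At chr19:58983741-58984790 a control peak of 1050 bp with a fold of 52.2 and a −log10 q of 279 met 2 CDCA peaks, the stronger with 26.8 and 94.99. The CDCA peak at chr19:58773225-58774939, 1715 bp long, had a fold of 28.0 and a −log10 q of 268, and the stronger of its 2 control partners had 18.2 and 184. At chr19:58929269-58929735 the CDCA values were 29.8 and 198.8 and those of the control partner 27.0 and 114. The CDCA peak at chr19:58865773-58866662 had 15.9 and 181, with 19.3 and 209 in control. At chr19:53155893-53156459 the CDCA fold was 14.7 over a background of 15.8, and the control partner had 6.32 over 45.0. The adjoining site at chr19:53156577-53157796 had a fold of 9.10 in control and 16.7 in CDCA. A pair of lower peaks completed the most enriched of each list. The control peak at chr19:53301897-53302164 had a fold of 52.8 against 15.7 in CDCA, and the CDCA peak at chr19:58084400-58085100 had 38.7 against 16.2 in control. The background of the first of these control peaks was 0.799, close to the lowest of its list.

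Broad sites were also common to both lists. The longest control peak and the longest CDCA peak marked 1 site, chr19:57802077-57804340 with 2264 bp in control and 57801958 to 57804707 with 2750 bp in CDCA. It had a fold of 11.8 and a −log10 q of 154 in control and 26.3 and 247 in CDCA, and the summits lay 1612 bp apart within it. A control peak of 1738 bp at chr19:57132792-57134529 met 2 CDCA peaks, and a CDCA peak of 1950 bp at chr19:57867935-57869884 met 2 control peaks. The site at chr19:53057674-53059305 measured 1632 bp in control and 1771 bp in CDCA, with a fold of 45.4 and 31.3. At chr19:58966664-58967887 the control peak of 1224 bp corresponded to a CDCA peak of 1964 bp that met 2 control peaks. Of the peaks over 1000 bp, 11 of 12 in control (61.5 to 99.8%) and 10 of 10 in CDCA (69.2 to 100%) were shared. Peaks of that length on the rest of chromosome 19 were shared in 58 of 59 control and 45 of 50 CDCA cases. Over the whole lists it was 94.1% and 94.9%. These shares lie within the intervals of the segments, so sharing of broad peaks did not set the segments apart.

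Library-specific peaks of these segments were mostly weak, as they were elsewhere on chromosome 19. In the segments their median −log10 q was 19.1 in control and 12.7 in CDCA, against 48.6 and 51.4 for shared peaks. Their median length was 222 and 223 bp against 429 and 439 bp. Library-specific peaks on the rest of chromosome 19 had a median −log10 q of 19.8 and 13.6 and a median length of 221 and 216.5 bp. Only 2 strong peaks of each list had no partner in the segments. In control these were adjacent members of the telomeric segment, at chr19:58264686-58265673 (988 bp, height 202, fold 72.4, −log10 q 325) and chr19:58266476-58266855 (height 105, fold 35.4, −log10 q 135). The nearest CDCA peak was 2280 bp from the first and 4070 bp from the second. The next control-only peak by strength was in the same segment, at chr19:58290255-58290577 (28.9 and 98.9), 850 bp from the nearest CDCA peak. It was followed by chr19:58945197-58945702 (14.8 and 94.6) and chr19:54080191-54080534 (36.5 and 94.2), which were 398 and 25 bp from the nearest CDCA peak.

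CDCA-only peaks of high strength lay beside control peaks in 4 of the 5 leading cases. The strongest was at chr19:58918353-58918848 (fold 12.4, −log10 q 107), where a control peak began or ended 382 bp away, and the next at chr19:58049541-58049868 (29.8 and 102), 494 bp away. The peaks at chr19:52497461-52497917 (36.8 and 94.1) and chr19:59092595-59092897 (22.6 and 93.1) lay 297 and 81 bp away. The exception was chr19:57722780-57723238 (12.2 and 95.2), with no control peak nearer than 13803 bp. Control-only members lay a median of 3287 bp from the other list and CDCA-only members 2160 bp, against 5487 and 4405 bp on the rest of chromosome 19. Within 1000 bp lay a peak of the other list for 25.7% of 148 (18.9 to 33.5) and 32.4% of 148 (24.98 to 40.6), against 17.1% (15.0 to 19.5) and 20.9% (18.3 to 23.7).

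Fewer called peaks had been left out of the lists in these segments. Each peak carries a running number, and numbers missing from a list show that a peak was numbered there and not listed. In the control list 265 of 394 numbers of the segments were listed (67.3%, 62.4 to 71.9), against 56.5% (54.6 to 58.3) on the rest of chromosome 19. In the CDCA list it was 261 of 391 (66.8%, 61.8 to 71.4), against 54.3% (52.3 to 56.3). The segments thus took up 394 control and 391 CDCA numbers, listed or not. At 101 of the 148 control-only members and 87 of the 148 CDCA-only members the other list had skipped at least 1 number beside the site, including all 4 strong ones. Skipped numbers were frequent in the segments, 129 of 394 in control and 130 of 391 in CDCA. The count beside sites was not made for other peaks, so it has no value to be set against. A skipped number has no position, so whether a partner had been called at those sites was not tested.

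Within the segments the peaks were unevenly spread. Of 44 windows of 100 kb, 6 held no peak of either list, and the stretch from 57.2 to 57.7 Mb held 1 CDCA peak and no control peak. The richest windows were at the telomeric end, 58.8 to 58.9 Mb with 20 control and 18 CDCA peaks and 58.9 to 59 Mb with 18 and 19. They were followed by 57.9 to 58 Mb (13 and 16) and 58.2 to 58.3 Mb (14 and 13), and 5 windows tied with 22 peaks in all. Control peaks outnumbered CDCA peaks in 19 windows and CDCA peaks outnumbered control peaks in 16, with 9 ties. The largest control excesses were at 53.9 to 54 Mb (14 and 6), 52.8 to 52.9 Mb (10 and 4) and 58.7 to 58.8 Mb (13 and 9). The largest CDCA excesses were at 58 to 58.1 Mb (7 and 14), 56.7 to 56.8 Mb (1 and 6) and 57 to 57.1 Mb (3 and 8). Counted from a −log10 q of 50 upward, the control excesses became 3 and 3, 1 and 1, and 3 and 2. The CDCA excesses became 1 and 3, 0 and 0, and 1 and 0, so of these 6 windows only that at 58 to 58.1 Mb still differed by more than 1 peak. In the stretch from 56.5 to 57.2 Mb few peaks were shared: each 100 kb window there held at most 1 shared control peak and 2 shared CDCA peaks.

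**Figure D4:**
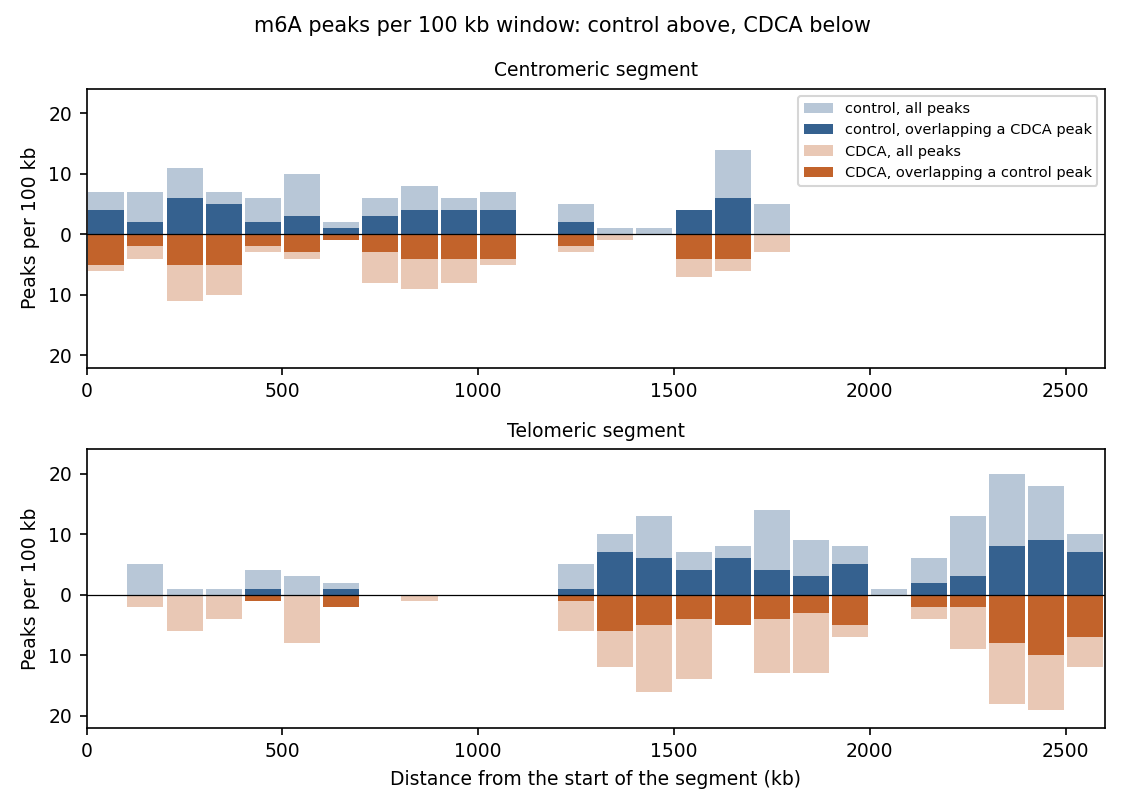
Listed peaks per 100 kb window (vertical axis; control upward in blue, CDCA downward in orange, dark parts overlapping a peak of the other list) along each segment, by distance from its start in kb (horizontal axis). Peaks of both lists are present in 35 of the 44 windows and of 1 list in 3, the telomeric segment is nearly empty 700 to 1200 kb from its start, and the richest windows, 20 control and 18 CDCA peaks and 18 and 19, lie near its end.

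The peaks next to the segment ends varied in fold. The first control peak inside the centromeric segment lay at 52358278 to 52358540 (fold 13.02) and the last outside it at 52204719 to 52204918 (8.79). The first inside the telomeric segment lay at 56610407 to 56610630 (8.22) and the last before it at 56216305 to 56216513 (32.2), and no peak of either list lay beyond the telomeric end.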

How the data were processed

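Peaks of control and CDCA-treated GES-1 cells were read from the table deposited for each MeRIP library. TopHat2 2.0.13, MACS2 2.1.0 and hg19 are named, without roles, in the submitters' processing notes. Peaks were listed per library, not pooled. Which input, filters and thresholds were used is not given in the sources used here. Per the file headers, the deposited pileup is a signal (summit height), fold enrichment a ratio, and significance −log10 of a p-value and of a q-value. No listed peak had a fold below 6. Positions count from 1.

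Local background was computed as height plus 1, over fold, minus 1. Heights were whole multiples of 0.862 (control) and 0.640 (CDCA) within 0.05 steps for at least 99.99% of peaks, and that step was taken as 1 fragment; depth in reads is otherwise unknown. Members were found by summit and compared with all other chromosome 19 peaks of the same list. Named sites are the 10 most significant, 5 longest and 5 most enriched peaks and the 5 leading library-specific peaks of each list; named windows are the 5 richest and the 3 with the largest excess each way. Segments, lists and rules were chosen with earlier results of these data known. Sequence motifs and genes under peaks were not analysed here, as no hg19 genome or annotation was used. Steps were tested on simulated lists. Tables were made in Python 3.11.15 (pandas 2.3.3, numpy 2.4.6), intervals with scipy 1.17.1 and plots with matplotlib 3.10.9.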

Additional observations from a re-analysis of the deposited data

How the results depend on the processing

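Of 56 recomputed values, 42 stayed within the 95% interval of the reported value (counts, within 1.5 times) and 14 moved, none of them past a test, since there was none. A −log10 q minimum of 20 left 168 control and 129 CDCA members, a CDCA number of 76.8% of control and shares of 50.6% and 62.0% (34.1% and 53.3% on the rest of chromosome 19). A fold minimum of 10 left 156 and 135 members, with 51.9% of CDCA peaks shared (42.3% elsewhere). Members of that −log10 q set against the whole other list were shared in 58.9% and 70.5% of cases (39.7% and 56.7% elsewhere), a setting added after seeing the data, as were leaving out the 5 richest windows and the bands of peak density and length. Reciprocal overlap of 50% gave 30.9% and 31.4% (19.9% and 23.3% elsewhere), and summits within 100 bp 25.3% and 25.7% (19.4% and 22.6% elsewhere). In all 18 shares of overlapping peaks recomputed under these settings, from the same 2 lists, the segments were above the rest of the chromosome. In CDCA the share elsewhere still lay within the segments' interval for summits within 100 bp (20.5 to 31.4) and for the −log10 q minimum of 20 (53.1 to 70.4). The order did not hold in each band of density and length (40.6% against 45.1% in CDCA windows with 20 or more peaks). Equal list sizes, midpoints, narrower segments and another count of skipped numbers moved no value out of its interval. The CDCA list was the shorter, so equal sizes left its number and medians unchanged by construction. Membership by midpoint gave the main values throughout. These unchanged values are among the 42 and say nothing about stability. Fewer peaks account for the moved counts by construction. A reciprocal overlap of 50% is also an overlap of 1 bp or more, so this rule cannot raise a share. The cause of the other moved values was not tested. The weakest listed summits rested on 12 fragments in control and 15 in CDCA. Peaks that were not listed, whether called or not, could not be examined here. No paired analysis was possible because each condition had 1 library.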
